A study of Mus musculus with 9 samples.

Results

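Newborn mice without p63 that carried a Cdx2 transgene were compared with wild type mice by the RNA of their esophagus. The comparison rests on 2 arrays whose titles name the p63 knockout with the Cdx2 transgene and 4 arrays whose titles name wild type, 6 of the 9 arrays in the series, and on every non-control probe. All mice were at postnatal day 0, on a C57BL/6J background, bred within the submitters' colony. The first group had the genotype p63-/- with Cdx2, a transgene that the labels name Villin-Cdx2. The villin promoter is known for driving genes in intestinal epithelium. The labels do not say which line or founder the transgene came from, nor which part of the p63 gene the knockout allele lacks. The other 3 arrays hold p63 knockout mice without the transgene. They served to estimate the spread between arrays and, in 1 comparison, as the group that, by its labels, lacks only the transgene. The labels number the mice with Cdx2 out of 3, and 2 are analysed here. On wild type replicate 4, 1 label names p63-/- while the title and the genotype name wild type, and the array is called wild type below.

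The transcription factor p63, encoded by Trp63, maintains the basal cells of stratified epithelia and switches on keratins, desmosomal proteins and basement membrane proteins. In the esophagus a basal layer (Krt5, Krt14, Krt15) gives rise to suprabasal layers (Krt4, Krt13) that build a cornified envelope. Without p63 the stratified epithelium is not formed and a simpler, partly ciliated epithelium remains. Cdx2 is a homeobox factor that sets intestinal identity, and its placement in the foregut is used to ask whether an esophagus without squamous cells can take on intestinal features, as in the metaplasia named after Barrett.

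Every array had 2 colours: the mouse RNA was labelled with Cy5, and a reference RNA pooled from 11 mouse cell lines was labelled with Cy3, without a dye swap. A log ratio below means log2 of the sample over the reference. The sample channel means log2 of the Cy5 signal after dye correction, with the mean log2 signal of both channels given the same distribution on all arrays. Cy3 thus has a part in its values. Of 41174 probes, 30038 to 33249 per array were well above background in Cy5, the median Cy5 signal lay between 309 and 472 intensity units, and no spot was saturated. The genotypes did not share slides (3) or scans (3), so in all values below the effects of slide, scan and genotype cannot be told apart. The labels call the arrays of a group biological replicates. The cell type label names epithelium, whereas the extraction protocol names esophageal tissue. Desmin (Des), a protein of muscle, had sample channel levels of 12.19 to 14.05 over the 9 arrays, so muscle was part of the samples. In bulk tissue, fewer cells of a type and less RNA per cell cannot be told apart.

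Several arrays stood apart by genes of neighbouring organs, which were picked after the values were seen. Pepsinogen Pga5 and the acid pump subunit Atp4b, genes of the stomach, read 18.33 and 16.55 in the sample channel of wild type replicate 1. In the other wild type arrays Pga5 lay between 7.50 and 9.29 and Atp4b between 7.22 and 8.02. Thyroglobulin (Tg) read 17.62 and 16.90 in wild type replicates 3 and 4, against 7.87 and 8.36 in replicates 1 and 2. The arrays with Cdx2 also differed from each other. Genes of the thymus, the T cell recombinase Rag1 (12.94), the T cell coreceptor Cd8b1 (14.17) and the thymic protease Prss16 (13.61), were high in replicate 2 with Cdx2. In replicate 1 with Cdx2 they read 6.64, 6.69 and 7.62, near or below the wild type arrays (Rag1 6.77 to 7.81). The knockout arrays without Cdx2 lay between both arrays with Cdx2 and above wild type. Rag1 read 9.22, 10.11 and 10.06 there, and Prss16 8.04, 11.67 and 10.87 (wild type 7.30 to 7.60). Genes of mucous and secretory airway cells were also lower in replicate 1 with Cdx2: Muc5b read 7.51 there and 14.48 in replicate 2, against 13.36 to 14.03 in wild type. Xist, transcribed in females, was high on wild type replicates 1, 2 and 4 and on replicate 1 with Cdx2, and low on wild type replicate 3 and replicate 2 with Cdx2. Over the whole lists, the summed signal of 21 lymphoid genes was 7266 and 49333 units on the arrays with Cdx2 and 8289 to 11880 in wild type. That of 24 gastric genes was 7089 and 16603 units with Cdx2, 812014 in wild type replicate 1 and 10379 to 13089 in the other wild type arrays. That of 32 secretory genes was 433866 and 1552254 units with Cdx2, and 1168238 to 1985880 in wild type. The part of these tissues in the results was not tested, and values without the arrays concerned are given beside the results.

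**Figure D1:**
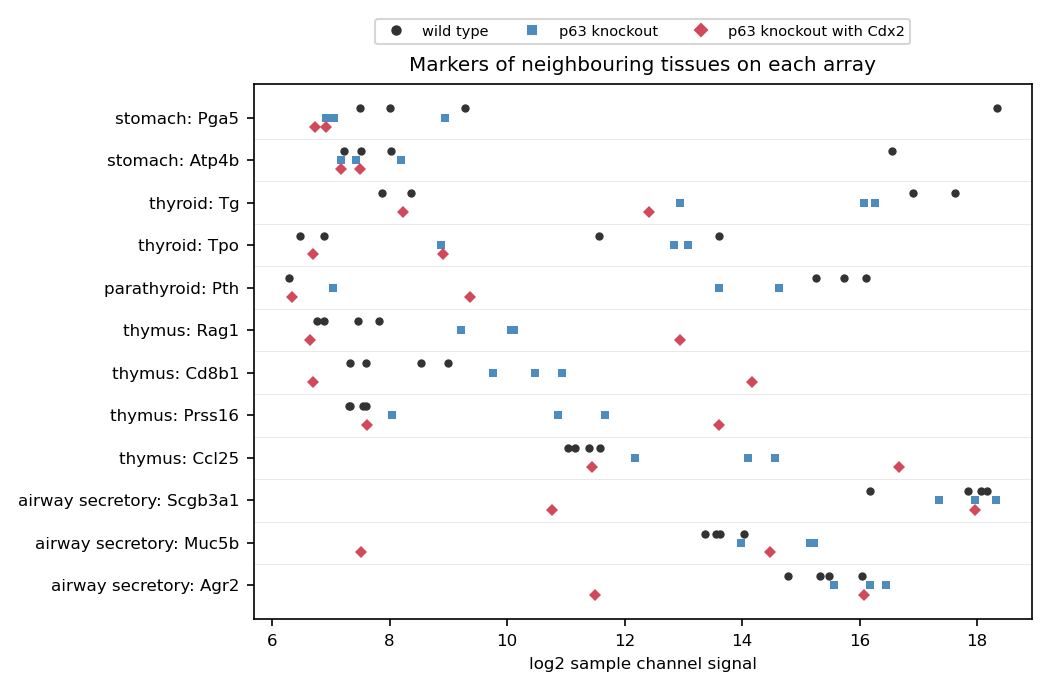
Sample channel signal (log2) of genes of neighbouring organs, 1 point per array: circles for wild type (n = 4), squares for p63 knockout (n = 3) and diamonds for p63 knockout with Cdx2 (n = 2). Among wild type arrays, replicate 1 carries the high stomach values (Pga5 18.33) and replicates 3 and 4 the high Tg values. Replicate 2 with Cdx2 has the highest thymus values (Rag1 12.94), followed by the knockout arrays (Rag1 9.22 to 10.11). Replicate 1 with Cdx2 has the low secretory values (Muc5b 7.51).

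The arrays of 1 group resembled each other no more closely in every case than arrays of different groups. Across 22626 genes, the log ratios of the 2 arrays with Cdx2 correlated at 0.905, pairs of wild type arrays at 0.879 to 0.969, and pairs of 1 wild type and 1 Cdx2 array at 0.863 to 0.915. These are correlations across genes, which are not independent replicates, and all arrays share the reference RNA.

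The state of the targeted gene was read first. The probe that gives the Trp63 value lies at chr16:25892012-25892071 (mm9, as the files give it), at position 4526 of its transcript. Its log ratio was 3.53, 3.78, 3.39 and 4.13 in wild type and 3.37 and 3.09 in the knockout with Cdx2. These groups did not overlap, but the difference of -0.48 (SE 0.19) did not pass the test (limma, adjusted p = 0.238), nor did that of the sample channel, -0.79 (adjusted p = 0.0678). The knockout arrays without Cdx2 read 2.74, 2.73 and 2.73, below both groups. They differed from wild type by -0.97 on the log ratio (limma, adjusted p = 0.0746) and by -1.19 on the sample channel (adjusted p = 0.01015), which passed. A probe that spans chr16:25865388-25866165, across an intron, at position 799 of its transcript, is shown because its values lay the other way:

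Trp63 probe: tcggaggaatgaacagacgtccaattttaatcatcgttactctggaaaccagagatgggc

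Its log ratio was 0.29, 0.39, 0.16 and 0.73 in wild type. The knockout arrays read 0.72, 0.83 and 0.74, and those with Cdx2 1.43 and 1.14, above every wild type array. Its Cy5 signal over local background was 28.4 to 88.3 units in wild type and 265 and 237 with Cdx2, so it was dim in every group. Another Trp63 probe, at chr16:25884684-25884743, stayed at background on all arrays. With the allele's missing part not given in the sources used here, these probes do not check the knockout label. The transgene could not be read either: none of the 9 arrays had the Cdx2 probe well above background, and the same held for Cdx1 and Cdx4. The Cy5 signal of Cdx2 over background was -5.45 and 21.7 units on the arrays with the transgene and -4.87 to 8.65 in wild type. Vil1, the gene whose promoter names the transgene, had log ratios of 3.05, 0.99, 0.43 and 1.05 in wild type and 1.44 and 1.99 with Cdx2 (difference 0.33, SE 0.62, adjusted p = 0.83). Its highest value was that of wild type replicate 1, the array with the stomach genes.

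Between the knockout with Cdx2 and wild type, 323 of 22626 genes passed the test on the log ratio at an adjusted p under 0.05, or 1.43%. Of these, 102 were higher (0.451%) and 221 lower (0.977%). Falls were larger than rises: 80 genes fell at least 2-fold and 24 at least 4-fold, while 11 rose at least 2-fold and 1 at least 4-fold. On the sample channel 554 genes passed (2.45%), 198 higher (0.875%) and 356 lower (1.57%), with 68 falls and 1 rise of at least 4-fold. The 33 lists used below were chosen with earlier results of these data known. Counts of passing members are to be read beside these shares of all genes. By its count, a list with 0 or 1 call is not told apart from them. Both readings shared 259 genes, 74 higher and 185 lower, and none of them had opposite signs. The median difference of all genes was -0.0049 on the log ratio and 0.0075 on the sample channel. From the 6 arrays compared alone, without the knockout arrays in the spread, 50 genes passed on the log ratio, 6 higher and 44 lower. Of 66 named calls, 24 passed in that fit. The number of genes depended on single arrays. The log ratio called 151, 58 and 60 genes without wild type replicate 1, 2 or 4, 134 and 92 without knockout replicate 2 or 3, and 190 and 198 without replicate 1 or 2 with Cdx2. Without replicate 1 with Cdx2 most calls were rises, 123 against 67 falls. By the sample channel, 318, 174, 330 and 180 genes passed without wild type replicate 1, 2, 3 or 4, and 353 without knockout replicate 3. When the sample channel was not scaled between arrays, its median over all genes shifted to -0.10 and 123 genes passed, 6 higher and 117 lower; scaled to the 75th percentile the median was -0.17 and 7 genes were higher and 129 lower. With scale normalization between arrays 95 genes passed on the log ratio, 19 higher and 76 lower, and 66 of them were among the 323.

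**Figure D2:**
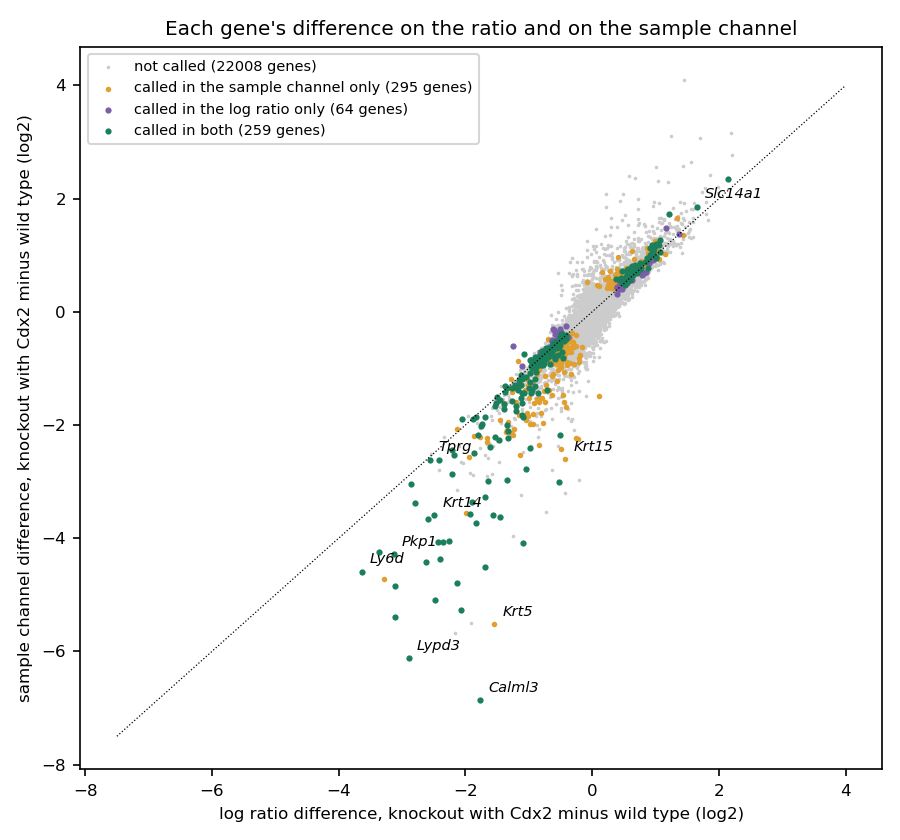
Difference between the knockout with Cdx2 (n = 2) and wild type (n = 4) for 22626 genes, with the log ratio on the horizontal axis and the sample channel on the vertical axis (both log2), coloured by which reading passed. The dotted line marks equal differences: Tprg (-2.55 and -2.61) lies on it, whereas Krt5 (-1.55 and -5.52) and Calml3 (-1.77 and -6.86) lie far below it.

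Many of the genes that fell most are known from stratified squamous epithelium. Ly6d, a surface protein of keratinocytes, had log ratios of 2.28, 2.52, 2.38 and 2.24 in wild type and -2.42 and -0.14 with Cdx2. The arrays with Cdx2 were both below every wild type array but were far from each other, and the fall of 3.64 (SE 0.55, adjusted p = 0.0277) missed the threshold when knockout replicate 3 or wild type replicate 1, 2 or 4 was left out. Pkp1, a plaque protein of desmosomes, read 2.25, 2.55, 2.24 and 2.50 in wild type and -0.95 and -0.55 with Cdx2. It fell by 3.13 (SE 0.18, adjusted p = 0.000439), or 8.78-fold. Serpinb5 (maspin), a serpin of epithelial cells, read 3.12, 3.32, 2.79 and 3.40 in wild type and -0.41 and 0.50 with Cdx2, a fall of 3.12 (SE 0.25, adjusted p = 0.00265). Aqp3, a water and glycerol channel, fell by 3.11 (SE 0.22, adjusted p = 0.00126) and Lypd3, a Ly6-type protein of keratinocytes, by 2.90 (SE 0.15, adjusted p = 0.00028). The wild type arrays lay close together in both, at 3.76 to 4.04 for Aqp3 and 2.76 to 3.03 for Lypd3. Cysrt1 fell by 3.37, Upk1b, a uroplakin, by 2.80, and Tprg, the neighbour of Trp63 on chromosome 16, by 2.55. Tprg read 0.78, 1.01, 0.54 and 0.96 in wild type and -1.93 and -1.53 with Cdx2. In these genes no Cdx2 array reached the lowest wild type array. The rule that named them required this, and it held for all 323 genes that passed on the log ratio.

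Keratins of the basal and the wound-type programme were among the 15 largest falls. Krt14, the basal partner of Krt5, read 1.02, 1.11, 1.08 and 1.31 in wild type and -1.48 and -1.23 with Cdx2, a fall of 2.49 (SE 0.11, adjusted p = 0.000264) or 5.61-fold. Krt6b fell by 2.40 (adjusted p = 0.000979); it was well above background on all wild type arrays and on neither array with Cdx2, so the change is a bound, at least 20.7-fold lower on the sample channel. There the group means were 10.81 in wild type and 6.44 with Cdx2. For such bounds a dim probe is set to its own signal or to that of the dimmest detected probe of the array, whichever is higher; they are computed on the scaled sample channel and are open to dye bias. Sprr3, an envelope precursor of the esophagus, fell by 2.44. Col7a1, the anchoring fibril collagen beneath the basal layer, fell by 2.41 (log ratios 1.26 to 1.65 in wild type, -1.08 and -0.65 with Cdx2), and Psca, a Ly6-type protein of stomach and bladder, by 2.48, with 1 of its 2 Cdx2 arrays well above background.

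**Figure D3:**
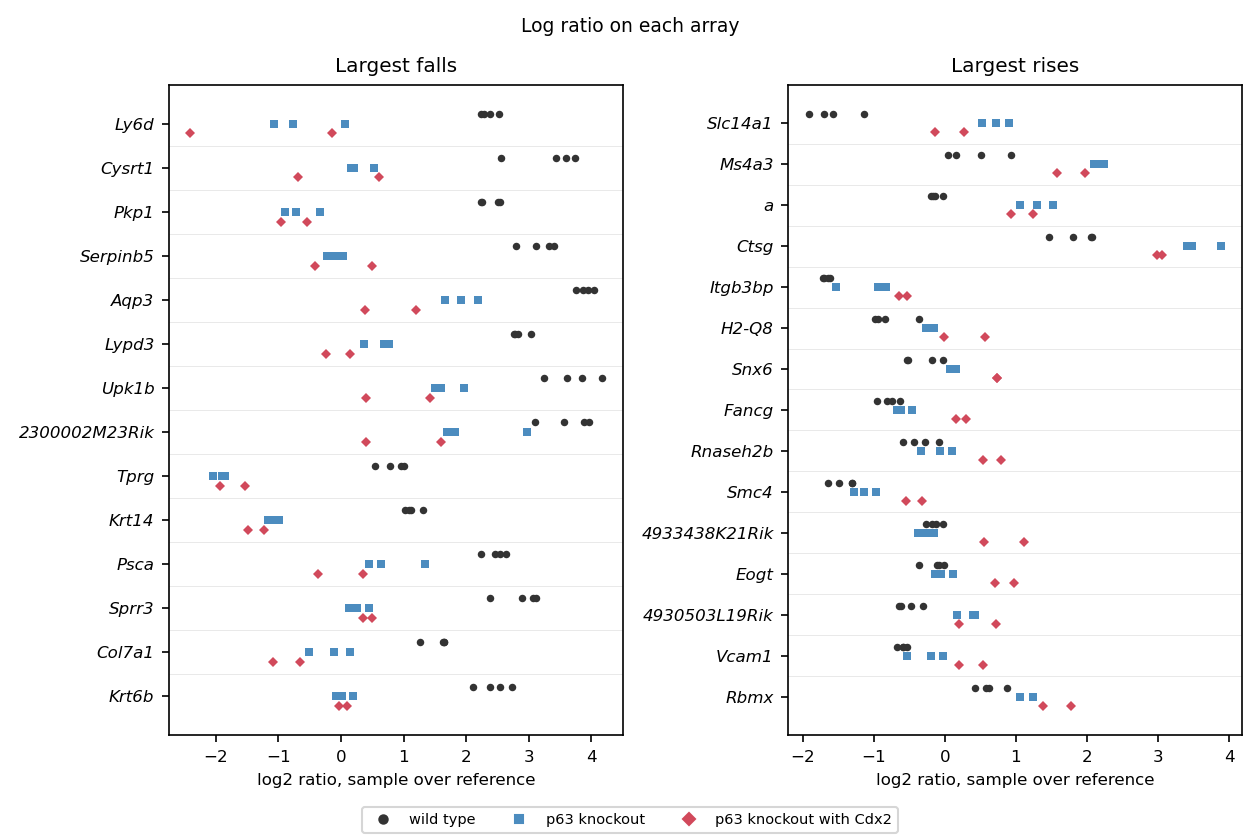
Log ratio (log2, sample over reference) on each array for 14 of the 15 named genes with the largest falls and the 15 with the largest rises, with circles for wild type (n = 4), squares for knockout (n = 3) and diamonds for knockout with Cdx2 (n = 2). For Ly6d the wild type arrays lie between 2.24 and 2.52 and the arrays with Cdx2 at -2.42 and -0.14; for Smc4 the wild type arrays lie between -1.65 and -1.31 and the arrays with Cdx2 at -0.55 and -0.32.

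Of 52 measured genes of the suprabasal layer and cornified envelope, 22 fell on the log ratio and 25 on the sample channel, and none rose. Their median differences were -0.84 and -1.74. Among them were the suprabasal keratins Krt4 (-1.09) and Krt13 (-1.46), cornifelin (Cnfn, -1.69), the transglutaminase Tgm3 (-1.35), suprabasin (Sbsn, -1.75), sciellin (Scel, -2.18) and the protease Prss27 (-1.61). On the sample channel, the protease inhibitor Spink5 (-4.72), Krtdap (-2.15) and Tgm1 (-2.06) passed as well. On the log ratio the list had 13 falls without wild type replicate 2, 12 without wild type replicate 4 and 14 without knockout replicate 3, and without replicate 1 with Cdx2 it had 15 falls and 2 rises. Of 32 basal genes, 7 fell on the log ratio (median -0.38) and 11 on the sample channel (median -0.41). Besides Krt14 they included Col17a1, the hemidesmosomal collagen (-1.83), Itgb4, its integrin (-1.35), Perp, a desmosomal tetraspan protein (-2.21), Dlk2 (-1.52) and the ligand Wnt10a (-1.88). The basal list had 4 falls without wild type replicate 2 or 4. Of 14 desmosomal genes, 5 fell (Pkp1, Perp, Ppl, Pkp3 and Evpl; median -0.52), and 7 on the sample channel, with Dsc2 (-2.18) and Dsg3 (-0.88) added; Dsg3 was not well above background with Cdx2 and was at least 1.84-fold lower. Of 20 genes of hemidesmosomes and basement membrane, 4 fell: Col7a1, Col17a1, Itgb4 and Col4a6 (-0.83). The lists share members, and the medians of the basal and suprabasal lists were negative under each scaling tried.

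The keratins were also where both readings parted. Krt5, the basal partner of Krt14, read 15.02, 15.11, 15.33 and 15.44 on the sample channel of wild type and 7.40 and 12.01 with Cdx2, a difference of -5.52 (SE 1.05, adjusted p = 0.039). Its log ratio differed by -1.55 (SE 0.53), which did not pass (adjusted p = 0.178). The reference channel of the same spots was lower too, at 12.42 to 12.79 in wild type and 7.48 and 9.86 with Cdx2, although the same reference RNA was put on every array. The raw Cy3 signal of Krt5 was 4322 to 5712 units in wild type, and 98.4 and 635 with Cdx2. Krt15, another basal keratin, read 17.49 to 17.91 on the sample channel of wild type and 15.15 on both arrays with Cdx2. That fall was 2.61 (SE 0.18, adjusted p = 0.000453), while its log ratio differed by -0.42 (adjusted p = 0.111) and its reference channel by -2.18. Calml3, a calmodulin-like protein of keratinocytes, fell by 6.86 on the sample channel, by 1.77 on the log ratio (adjusted p = 0.0449), and its reference channel differed by -5.09. Its arrays with Cdx2 were far apart, at 7.51 and 10.25 on the sample channel and 0.85 and 2.23 on the log ratio. Its log ratio fall passed in 2 of 9 fits that left out 1 array. Lypd3 fell by 6.12 (69.7-fold) on the sample channel and by 7.45-fold on the ratio, with a reference difference of -3.23. Tprg, by contrast, differed by -0.06 in the reference channel and fell alike in both readings.

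Across all 22626 genes the differences of the sample and of the reference channel correlated at 0.685, and both come from the same spots. The reference channel alone called 53 genes between these groups. For the 221 genes that fell on the log ratio, the median reference difference was -0.06, and for the 102 that rose it was 0.05. Why Cy3 moved with Cy5 was not tested.

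**Figure D4:**
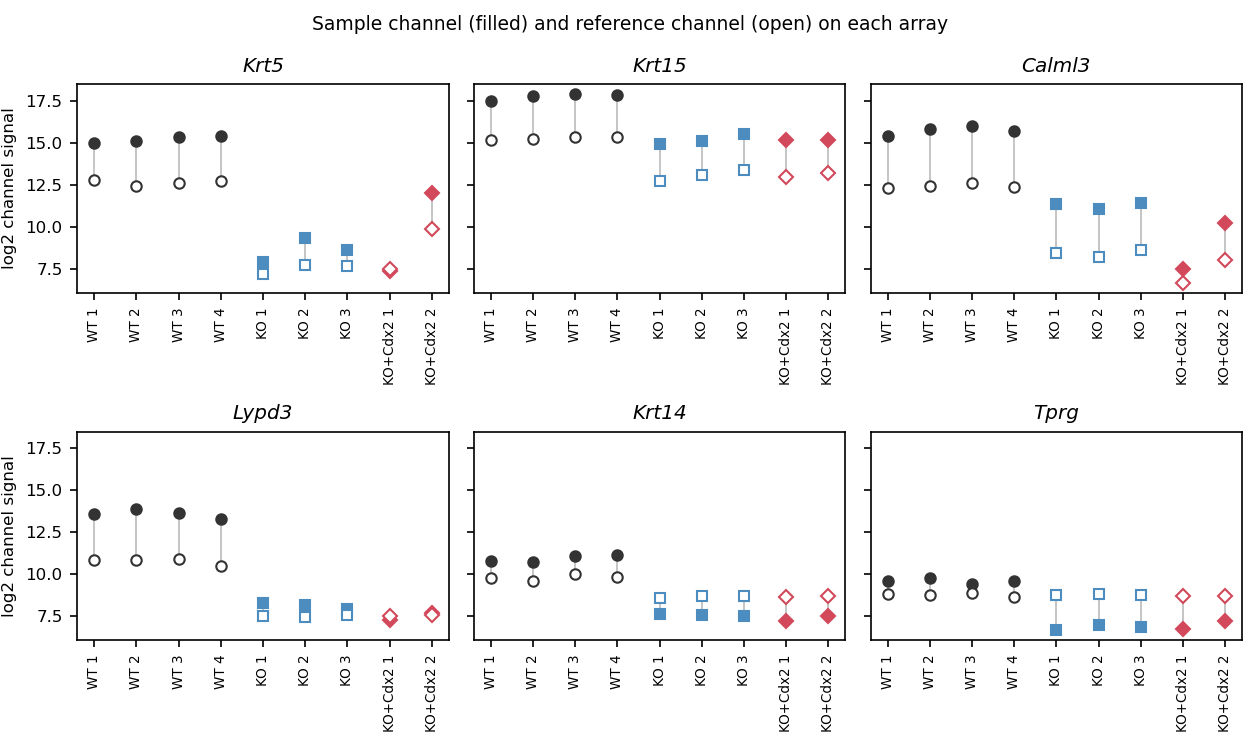
Log2 signal of the sample channel (filled) and the reference channel (open) of 6 genes on each of the 9 arrays, joined by a line whose length is the log ratio. In Krt5, Krt15, Calml3, Lypd3 and Krt14 the open points lie lower outside wild type, as the filled ones do (Krt15: 15.17 to 15.36 in wild type, 12.96 and 13.23 with Cdx2), whereas in Tprg the open points stay between 8.63 and 8.89 on all arrays.

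Of 30 measured transcription factors of squamous epithelium, 4 passed on the log ratio (among them Barx2, Klf5 and Klf3; median of the list -0.43) and 8 on the sample channel. Klf5, a factor of basal keratinocytes and of gut crypts, read 1.75, 1.78, 1.77 and 1.90 in wild type and 0.77 and 1.01 with Cdx2, a fall of 0.91 (SE 0.09, adjusted p = 0.00775). It passed in each fit that left out 1 array. Barx2, a homeobox factor of the foregut, fell by 1.10 (SE 0.17, adjusted p = 0.0326). Zfp750, which promotes late differentiation, passed on the sample channel alone (-2.56, adjusted p = 0.00373), as did Pitx1 (-2.24) and Tfap2c (-0.81). Without wild type replicate 2 or 4, knockout replicate 2 or replicate 1 with Cdx2, 1 factor of the list fell on the log ratio (with 1 rise in the last of these), and without knockout replicate 3 or replicate 2 with Cdx2, 2 did. Of 32 factors of foregut and columnar epithelium, 4 fell and none rose: Foxe1, a thyroid and foregut factor, Elf3, Klf5 and Foxq1. Foxe1 was not well above background with Cdx2 and was at least 4.65-fold lower on the sample channel. Thyroid genes were high on 2 wild type arrays, and its log ratio fall of 1.53 (adjusted p = 0.0459) passed without wild type replicate 3 (-1.66) but not without replicate 4 (-1.37, adjusted p = 0.0944).

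Of 14 clade B serpins, Serpinb5 passed on the log ratio, and Serpinb3b (-2.22), Serpinb10 (-1.39), Serpinb1b (-0.95) and Serpinb3a (-0.53) passed on the sample channel as well; Serpinb3a and Serpinb3b were not well above background with Cdx2, so their values are bounds (at least 1.44-fold and 4.65-fold lower). The family is a cluster of close copies, so Serpinb3a and Serpinb3b may share signal. Of 19 Ly6-type genes, Ly6d, Lypd3 and Psca fell and none rose. Of 6 uroplakins, Upk1b fell (log ratios 3.25 to 4.17 in wild type, 0.40 and 1.43 with Cdx2), and Upk2 (-1.59) and Upk3bl (-2.24) passed on the sample channel. Cyp2a5 and Cyp2a4, near-identical cytochromes P450 whose probes may not tell them apart, differed by -2.13 and -1.70 on the log ratio and by -4.78 and -4.51 on the sample channel, and passed in both.

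Among signalling genes, 3 Wnt ligands fell out of 46 genes of the pathway: Wnt10a (-1.88, SE 0.15, adjusted p = 0.00237), Wnt6 (-1.80, SE 0.29, adjusted p = 0.0337) and Wnt4 (-1.45, SE 0.15, adjusted p = 0.00855). Wnt10a read -0.996, -0.75, -0.49 and -0.64 in wild type and -2.47 and -2.74 with Cdx2. Wnt4 read 0.96 to 1.23 in wild type and -0.56 and -0.17 with Cdx2. The groups of all 3 ligands did not overlap, as in every gene that passed on the log ratio. Wnt10a and Wnt4 passed in each fit that left out 1 array. None of the pathway rose, and its median was -0.07. Lrig3, a membrane protein that damps receptor tyrosine kinases, was the 1 gene of 16 in the EGF family list to fall (-0.64, adjusted p = 0.0171). Of 30 genes of the p53 response, Perp and the apoptosis inducer Pmaip1 (-0.97, adjusted p = 0.0316) fell; Perp is also a known target of p63. Among 27 Notch genes and 37 genes of the Hedgehog and BMP pathways, none passed on the log ratio. In lists of these sizes that is near the 1.43% of all genes that passed. The lowest p in the Notch list was that of the effector Hes1 (-0.66, adjusted p = 0.111), and the BMP and activin antagonist Fst passed on the sample channel (-1.36, adjusted p = 0.0481).

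Genes of intestinal epithelium, the programme that Cdx2 is known to direct, did not pass on the log ratio. Of 55 measured genes of intestinal epithelium and known Cdx2 targets, 0 passed, which in a list of this size is near the 1.43% of all genes. Of the 55, 29 had a positive difference, and the median was 0.04, beside -0.0049 for all genes. On the sample channel 1 rose, Slc7a9, an amino acid transporter of gut and kidney. It read 7.09, 6.86, 7.03 and 6.94 in wild type and 7.72 and 7.59 with Cdx2 (difference 0.68, adjusted p = 0.0418), a small change at a low signal that passed in 2 of 9 fits that left out 1 array. Without wild type replicate 1, the array with stomach genes, 1 gene of the list rose on the log ratio and the median was 0.20. Without replicate 2 with Cdx2, 1 fell and the median was -0.08. Of 24 gastric genes 1 passed, Psca, which fell. The median of the gastric list was -0.46 with all arrays and 0.01 without wild type replicate 1, and that of the secretory list -0.32 with all arrays and -0.05 without replicate 1 with Cdx2.

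Of 38 genes of simple epithelium, Elf3 fell (-1.20, adjusted p = 0.0459), and 4 genes passed as lower on the sample channel, among them Krt7 (-1.09) and Lad1 (-1.59). The simple keratin Krt8 read 17.14, 15.80, 15.34 and 15.56 on the sample channel of wild type and 14.88 and 16.16 with Cdx2, and its partner Krt18 read 16.89, 16.05, 15.55 and 15.81 against 15.64 and 16.94. The groups of both keratins overlapped, and neither passed (adjusted p = 0.687 and 0.812). Epcam (11.47 to 12.04 in wild type, 11.75 on both arrays with Cdx2) and Cdh1 (11.85 to 13.20 and 13.09 and 13.69), which mark epithelium of any kind, also overlapped between groups. Of 56 genes of multiciliated cells none passed in either reading, with medians of -0.05 and -0.15. Of 32 secretory genes, Cyp2f2, a club cell cytochrome, passed on the sample channel alone (-1.49, adjusted p = 0.0364), with a log ratio difference of 0.10.

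The genes that rose included members of the cell division machinery. Of 68 genes of DNA replication and S phase, 3 rose on the log ratio and 5 on the sample channel. Of 79 genes of mitosis and chromosome segregation, 4 rose in each reading, and none of either list fell. Of all genes, 0.451% rose on the log ratio and 0.875% on the sample channel. Most members lay on the same side: 66 of 68 and 77 of 79, those that passed included, had a positive difference on the log ratio. The list medians were 0.54 and 0.59 on the log ratio and 0.61 and 0.65 on the sample channel. Over all genes 49.1% had a positive difference. The 31 measured erythroid and platelet genes also had a positive median, of 0.50 on the log ratio, with 23 positive, and 0.66 on the sample channel. Without replicate 1 with Cdx2 that log ratio median was 0.11, and without replicate 2 it was 0.78. The list's summed sample channel signal was 789789 and 734789 units with Cdx2 and 697512 to 837757 in wild type, and its part in the division genes' values was not tested. Fancg, a DNA repair scaffold, read -0.74, -0.64, -0.81 and -0.96 in wild type and 0.16 and 0.29 with Cdx2, a rise of 1.02 (SE 0.11, adjusted p = 0.00972) or 2.02-fold. It was the 1 gene of these lists that passed in each fit that left out 1 array. Smc4, the core of condensin, read -1.31, -1.65, -1.31 and -1.49 in wild type and -0.55 and -0.32 with Cdx2 (rise 1.00, SE 0.14, adjusted p = 0.0183). Itgb3bp, a centromere protein, rose by 1.07 (adjusted p = 0.0377) and Rnaseh2b, a subunit of RNase H2, by 1.01 (adjusted p = 0.0418). Dut, which keeps uracil out of DNA, rose by 0.90, the condensin subunit Ncapd3 by 0.78 and the cohesin subunit Rad21 by 0.59. The sliding clamp Pcna (0.80, adjusted p = 0.0471), the maintenance methyltransferase Dnmt1 (0.65), the histone mRNA binder Slbp (0.74) and the checkpoint protein Bub3 (0.51) passed on the sample channel alone.

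Other genes with roles in division were picked after their values were seen. Ezh2, the methyltransferase of Polycomb, read -0.96, -1.28, -0.97 and -1.03 in wild type and -0.23 and -0.13 with Cdx2 (rise 0.88, SE 0.13, adjusted p = 0.0277). Topbp1, a replication checkpoint protein, rose by 0.91, Bora, an activator of mitotic kinases, by 0.95, Haus3, a spindle protein, by 0.83, Cenpj, a centriole protein, by 0.75 and Mis18a, a centromere protein, by 0.74. In each of these the groups did not overlap, as in every gene that passed on the log ratio.

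Without replicate 2 with Cdx2, the array with the highest thymus values, the log ratio medians of the replication and mitotic lists were 0.68 and 0.73. The fit then rests on 1 array with Cdx2, which is assumed to vary like the other groups. Without replicate 1 with Cdx2, 1 gene of each list rose and the medians were 0.39 and 0.44. No mitotic gene passed without wild type replicate 2 or 4 and 1 without wild type replicate 1, while 12 replication and 7 mitotic genes passed without knockout replicate 1. The summed sample signal of the mitotic list was 799487 and 644040 units on replicates 1 and 2 with Cdx2 and 428807 to 546314 in wild type. The part of thymus tissue in these sums was not tested. The medians of both lists stayed positive under each scaling tried.

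**Figure D5:**
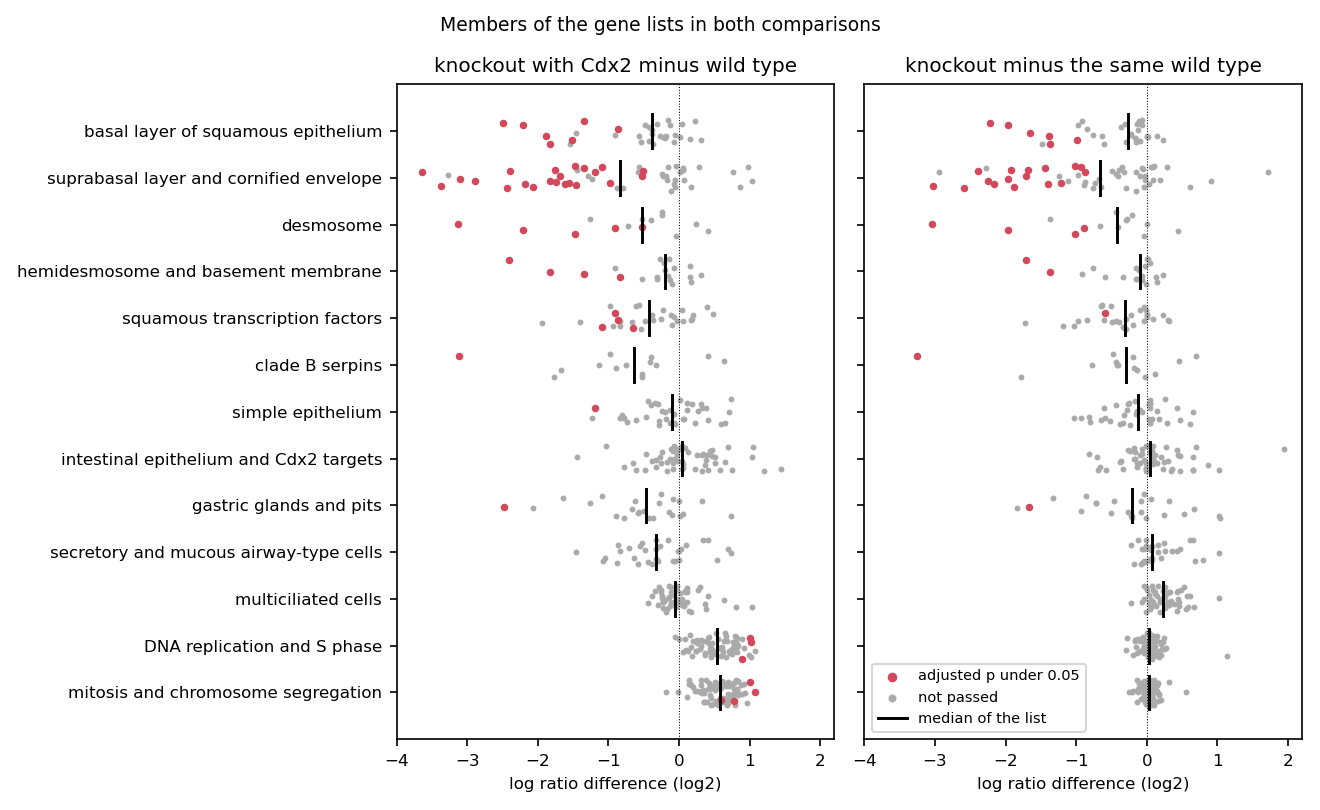
Log ratio differences (log2) of the members of 13 gene lists, 1 point per gene, for the knockout with Cdx2 minus wild type (left) and the knockout minus the same wild type arrays (right), with genes at an adjusted p under 0.05 in red and a bar at each list's median. The suprabasal list has a median of -0.84 on the left and -0.67 on the right, and the mitotic list 0.59 on the left and 0.03 on the right.

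Outside these lists, the 1 gene that rose at least 4-fold was an unnamed transcript, AK043081 (2.15 on the log ratio, adjusted p = 0.0128), singled out after its values were seen. Among named genes the largest rise was that of Slc14a1, a urea transporter, with log ratios of -1.58, -1.92, -1.14 and -1.70 in wild type and 0.27 and -0.14 with Cdx2 (rise 1.65, SE 0.22, adjusted p = 0.0166). It did not pass without wild type replicate 4 or replicate 1 with Cdx2. The agouti gene (a), a signalling protein of hair follicles that was well above background on 1 wild type array and both Cdx2 arrays, rose by 1.22 (SE 0.14, adjusted p = 0.0114) from wild type log ratios of -0.20 to -0.02 to 0.93 and 1.24, and passed in each fit that left out 1 array. H2-Q8, a class I histocompatibility gene with close copies, rose by 1.06 (adjusted p = 0.0498). Snx6, a sorting nexin, rose by 1.06, Eogt, a glycosyltransferase, by 0.98, Rbmx, an RNA binding protein, by 0.96 and Vcam1, an adhesion molecule for leukocytes, by 0.96.

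Blood cell lists moved with single arrays. Of 30 myeloid and mast cell genes, 3 rose on the log ratio: Ms4a3 (1.37), the granule protease Ctsg (1.17) and its relative Prtn3 (0.46), all of myeloid precursors. None of the 3 passed on the sample channel, the median of the list was -0.07, and none of them passed in more than 3 of the 9 fits that left out 1 array. No lymphoid gene passed of 21, with a median of 0.68. Without replicate 1 with Cdx2, 8 lymphoid genes rose, and without replicate 2 none did and the median was -0.30. Of 34 genes of fibroblasts and matrix, Col6a1 fell (-0.69, adjusted p = 0.0473). No gene passed on the log ratio among 24 of smooth muscle, 37 of skeletal muscle, 20 of endothelium and 30 of enteric neurons and glia. Such counts are near the 1.43% of all genes that passed. In 31 erythroid and platelet, 19 adipocyte, 17 ionocyte-type and 28 neuroendocrine genes none passed on the log ratio, and among those that did on the sample channel was the platelet chemokine Ppbp (-1.29). Of 30 Hox genes, Hoxd8 passed on the log ratio alone (-1.25, adjusted p = 0.0442). Its sample channel difference was -0.61 (adjusted p = 0.412), with overlapping groups; its reference channel difference was 0.64, and with 1 array left out in turn it passed 2 of 9 times.

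Whether the transgene shifted the knockout was asked by setting the 2 arrays with Cdx2 against the 3 knockout arrays without it in the same fit. On the log ratio 0 of 22626 genes passed (0%), with a lowest adjusted p of 0.214 and 2588 genes at an unadjusted p under 0.05. The sample channel called 53 of 22626, among them Eogt (difference 0.96, limma, adjusted p = 0.0445). The log ratio of Eogt read 0.11, -0.05 and -0.13 in the knockout and 0.97 and 0.70 with Cdx2 (difference 0.86, adjusted p = 0.353). Without replicate 1 with Cdx2, 36 genes passed on the log ratio, and without replicate 2, 11 did. The knockout without Cdx2 was set against the same wild type arrays, so both comparisons share them. The differences from wild type with and without Cdx2 were -2.49 and -2.22 for Krt14, -3.13 and -3.04 for Pkp1, -3.12 and -3.26 for Serpinb5, and -2.55 and -2.75 for Tprg. For Krt14 the difference between both knockout groups was -0.27 (adjusted p = 0.444). Aqp3 differed more, with -3.11 and -1.97 (difference -1.13, adjusted p = 0.362), and so did Cyp2a5, with -2.13 and -0.50 (difference -1.63, adjusted p = 0.353). Cyp2a5 read 4.65, 4.17 and 3.83 in the knockout and 2.31 and 2.85 with Cdx2, without overlap.

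For the genes of cell division, the medians of the replication and mitotic lists were 0.03 and 0.03 for the knockout minus wild type and 0.50 and 0.53 for the knockout with Cdx2 minus the knockout. For the erythroid and platelet list they were 0.11 and 0.26. Thymus genes on the knockout arrays lay between both arrays with Cdx2 (Rag1 9.22 to 10.11, against 6.64 and 12.94). The part of thymus tissue in these medians was not tested. Fancg read -0.46, -0.68 and -0.62 in the knockout, beside -0.96 to -0.64 in wild type, and 0.16 and 0.29 with Cdx2 (difference 0.81, adjusted p = 0.353). Smc4 read -1.29, -0.97 and -1.14 in the knockout and Ezh2 -1.17, -0.79 and -0.91, and the arrays with Cdx2 were above them in both genes (differences 0.69 and 0.78, adjusted p = 0.362 for each). No gene of either list passed in this comparison, and an adjusted p above the threshold does not show that the groups were alike. Slc14a1 and the agouti gene, which rose against wild type, were as high or higher in the knockout (log ratios 0.52 to 0.90 and 1.05 to 1.51).

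The promoters of the genes that passed were read for letters known from p63, Cdx2 and cell cycle promoters, as a description. RefSeq windows of 300 bases (250 before to 50 after a gene's start, GRCm38.p6) were given for 13640 of the tested genes, 58 of those that rose and 140 of those that fell. On either strand, a pair of CATG and CNNG 6 bases apart, which resembles part of a p63 site, was in the windows of 10.71% of the falling genes and of 11.71% of all genes. The Cdx2-type TTTATG was in 13.79% of the rising, 8.57% of the falling and 9.55% of all genes. The element TTTGAA, known from promoters of mitotic genes, was in 24.14% of the rising (14 genes), 16.43% of the falling and 15.67% of all genes. In the same order, the E2F-type TTCCCGCC was in 1.72% (1 gene), 2.14% and 3.97%, and CCAAT in 32.76%, 33.57% and 42.17%. Matches of different motifs can overlap one another, and a match is a description, not a site. Windows of 3 genes are shown, a serpin without the pair, a suprabasal gene with it (and with TTTGAA, read on the other strand) and a rising gene with CCAAT, with the matches in capitals. They are Serpinb5 (chr1:106860925-106861224, plus strand), Sbsn (chr7:30751221-30751520, plus strand) and Ezh2 (chr6:47594981-47595280, minus strand), all GRCm38.p6.

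Serpinb5 promoter: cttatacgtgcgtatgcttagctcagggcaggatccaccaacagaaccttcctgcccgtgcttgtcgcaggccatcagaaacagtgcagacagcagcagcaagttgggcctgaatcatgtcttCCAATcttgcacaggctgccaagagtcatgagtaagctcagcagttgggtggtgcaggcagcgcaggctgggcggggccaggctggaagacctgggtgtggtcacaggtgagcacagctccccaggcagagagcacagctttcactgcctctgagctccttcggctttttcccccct

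Sbsn promoter: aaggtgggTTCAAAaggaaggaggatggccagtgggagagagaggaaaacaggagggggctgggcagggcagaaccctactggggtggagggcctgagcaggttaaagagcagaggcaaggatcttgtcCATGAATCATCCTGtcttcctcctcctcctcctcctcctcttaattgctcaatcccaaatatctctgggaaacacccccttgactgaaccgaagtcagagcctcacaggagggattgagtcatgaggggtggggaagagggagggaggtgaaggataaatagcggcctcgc

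Ezh2 promoter: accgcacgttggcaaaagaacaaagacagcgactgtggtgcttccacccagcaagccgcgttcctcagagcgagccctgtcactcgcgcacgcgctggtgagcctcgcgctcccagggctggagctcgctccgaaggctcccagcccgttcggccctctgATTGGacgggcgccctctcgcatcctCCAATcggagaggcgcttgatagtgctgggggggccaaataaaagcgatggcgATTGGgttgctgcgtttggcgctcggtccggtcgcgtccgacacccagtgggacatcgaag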

How the data were processed

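Newborn mouse esophagus RNA (Cy5) and a common reference RNA (Cy3) were hybridised on 9 arrays. Per the file headers, spots were read with Agilent Feature Extraction 10.7.3.1 and probes placed on mm9, while the submitters' processing notes name version 9.1. The deposited intensity of each spot and its local background were used. The deposited log2 table of the authors served as an alternative, its direction and scale found by comparison with the scanner values (correlation 0.804 to 0.916 per array) and its centring unknown.

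Background was corrected by normexp (offset 50), and dyes by loess within arrays with control and outlier spots at weight 0. The sample channel was scaled by Aquantile, which acts on the mean of both channels. Probes well above background in Cy5 on at least 2 arrays were kept, with the brightest probe per gene. Of 41174 probes, 26918 were named by accession, 5899 by symbol and 8357 kept the file's name. limma 3.58.1 in R 4.3.3 was fitted to all 9 arrays with 3 genotypes, with Benjamini-Hochberg adjusted p under 0.05 over 22626 genes as the threshold. Adjusted p-values come from this fit, except where the text names an array left out or another setting. P-values measure the spread between these arrays, and the small number of arrays limits the precision.

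Named genes were the target genes, the 15 largest falls and rises on the log ratio with separate groups and a symbol, the 10 largest differences each way that passed in both readings, and up to 4 members per list. Members and lists were chosen with earlier results of these data known. Some genes that met these rules are not reported here. Slide and scan could not be used as a block.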

Additional observations from a re-analysis of the deposited data

Results flagged for a closer look

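Among 73 named genes, 2 had a wild type array far from the other 3, and chance alone gives such a gap in about 1 in 20 groups. Col7a1 had a log ratio of 1.26 on wild type replicate 1, against 1.63 to 1.65 on the others. Klf3 had 0.15 on wild type replicate 2, against 0.21 to 0.22. In both genes the 2 arrays with Cdx2 lay below each wild type array, these included. Groups were separate in every gene that passed on the log ratio.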

How the results depend on the processing

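The number of genes called moved with the processing, and the cause was not tested. On the log ratio (323 genes) it was 814 with no background correction, 95 with scale normalization between arrays (20% higher, against 31.58%), 165 with median centring, 546 with a trended and robust variance, 50 from the 6 arrays compared alone (12% higher, with fewer samples) and 58 to 372 when 1 array was left out. On the sample channel (554 genes) it was 284 from the 6 arrays alone, 123 without scaling between arrays, 136 when scaled to the 75th percentile, and 174 to 689 when 1 array was left out. Both scalings, and the fit without replicate 2 with Cdx2 and wild type replicate 1 together (151 on the log ratio), were chosen after seeing the data. Between the knockouts with and without Cdx2 (0 genes), 4 were called with the scanner's processed signals, 4 with the authors' table, 1 with the trended variance, 5 without those 2 arrays together and 0 to 36 when 1 array was left out. The replicate numbers do not pair the samples (same-numbered arrays correlated at -0.14 to 0.19 in their deviations); with the replicate number as a block, 8 genes were called on the log ratio and 35 on the sample channel. Of 66 named calls, 22 passed in each fit that left out 1 array, 3 (Pkp1, Tprg and Krt14) under each setting run, and none changed sign. Among named genes that did not pass, Trp63 read 0.21 with the median of its probes and Vil1 -0.0064 with the block.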
